A study of Mus musculus with 18 samples.

Results

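Integrins are the receptors by which cells hold on to the matrix around them, and laminins are the main adhesive proteins of the basement membrane. The genes described here are those whose mouse symbol names an integrin α or β subunit or a laminin α, β or γ chain. By that rule 39 of the 55487 gene rows were chosen, 28 with an integrin symbol and 11 laminin chains. The rule also takes in Itgbl1, which encodes a secreted integrin-like protein rather than a receptor subunit. A filter on low counts left 13469 genes for testing, among them 20 of the 39 genes: 14 integrin subunits and 6 laminin chains.

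Each integrin pairs an α with a β subunit, and the pair sets which matrix protein is bound, while the short inner tails connect to actin through the proteins of the focal adhesion. Laminins are trimers of an α, a β and a γ chain that assemble into a sheet beneath the epithelium. In kidney tubules, Itgb1 pairs with Itga3 or Itga6 to bind laminin and with Itga1 or Itga2 to bind collagen, and Itgav paired with Itgb6 or Itgb8 releases active TGFβ from its latent complex.

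Gene expression was measured in im-TEC, a conditionally immortalized line of mouse tubular epithelial cells, with QuantSeq libraries that count reads near the 3′ end of polyadenylated RNA. The design crossed transforming growth factor β (TGFβ), a profibrotic cytokine, with nicotinamide (NAM) or S-adenosyl methionine (SAM), in 6 groups of 3 libraries. All groups shared the same line, had been grown for 7 days without interferon-γ at the temperature that lowers large T antigen activity, and were then treated for 48 h. The control group had no agent named. The TGFβ group received 10 ng/mL TGFβ, the NAM group 1 mM nicotinamide and the SAM group 0.5 mM S-adenosyl methionine. The TGFβ+NAM and TGFβ+SAM groups received TGFβ with 1 of the supplements. As a model the study rests on 1 immortalized line in culture. The labels do not say that the 3 libraries of a group came from separate cultures, so the p-values measure the spread between libraries, which may be technical.

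The libraries held 4171170 to 7717626 reads in genes. Of 12 tubular markers, Pax2, Pax8, Cdh16, Aqp1, Lrp2 and Krt8 were among those present, whereas Epcam and Umod had no read and Cdh1 was near 0. The summed level of these 12 markers was 1940 to 2030 CPM (a gene's reads as a share of the library total, rescaled) in control and 815 to 900 CPM in TGFβ libraries. Markers of other cell types were also counted: of 11 leukocyte markers Cd3e, Cd79a, Adgre1, Tyrobp and Cd52 had no read, and the endothelial genes Cdh5 and Kdr had none. Of 5 podocyte markers Nphs1 had no read, but the summed level was 300 to 327 CPM in control and 311 to 346 CPM in TGFβ libraries, nearly all of it Synpo and Podxl. The summed level of 6 fibroblast markers was 6.71 to 8.6 CPM in control and 124 to 134 CPM in TGFβ libraries, nearly all of it Col1a1 and Col1a2, with Lum at 0. In such bulk cultures fewer cells of a type and less RNA per cell cannot be told apart. The tubular and fibroblast sums moved with TGFβ beside the genes described below, and their part in the results was not tested. As a check of the labels, 4 genes known to respond to TGFβ were read, and 3 rose with it. Acta2 rose by 3.62 ± 0.10 (log2 change ± SE), whereas Smad7 was not called (0.37 ± 0.18).

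Some libraries need care. By title 3 libraries belong to the SAM group, but replicates 2 and 3 are tagged DIM. and LUN., and results that rest on these are given with and without both. The 6 libraries with SAM also carry library numbers apart from the 12 without it, so in comparisons of SAM with no SAM the supplement and the library block cannot be told apart. A further pair, replicate 3 of NAM and replicate 1 of TGFβ+NAM, lay away from the rest in earlier work on these data.

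Of the 39 genes, 19 fell below the low-count filter. No read was found in any of the 18 libraries for Itga4, Itga8, Itgam, Itgb2l, Itgbl1, Lama1, Lama2 and Lama4; a count of 0 allows up to 3 reads, or 0.0266 CPM over all libraries. Itga8 encodes the kidney mesenchymal receptor for nephronectin, and Lama1, Lama2 and Lama4 encode the laminin α chains other than those of Lama3 and Lama5. The 8 leukocyte subunits were at or near 0: Itgad, Itgae, Itgal, Itgax and Itgb7 had 3, 12, 1, 1 and 27 reads over all libraries, Itgam and Itgb2l had none, and only Itgb2 passed the filter. Itga11, a collagen receptor subunit, had 8 reads, Itga7, a laminin receptor subunit of muscle, had 58, Lama3 56 and Lamc3 48.

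Itga2 and Itgb4 were the remaining genes below the filter. Itga2, the α subunit of a collagen receptor, had 9 reads in control, 26 in TGFβ, 1 in NAM, 9 in TGFβ+NAM, none in SAM and 1 in TGFβ+SAM, each over 3 libraries. Itgb4, the partner of Itga6 in hemidesmosomes, had 5, 17, 2, 10, 1 and 10 reads in the same order. Both had their highest count in the TGFβ group. With no low-count filter 31 of the 39 genes entered the test, and with TGFβ against control 4 were called higher and 6 lower, as in the filtered test described next, neither of these 2 among them. The grid of reads per gene and group shows which genes were measured well.

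**Figure D1:**
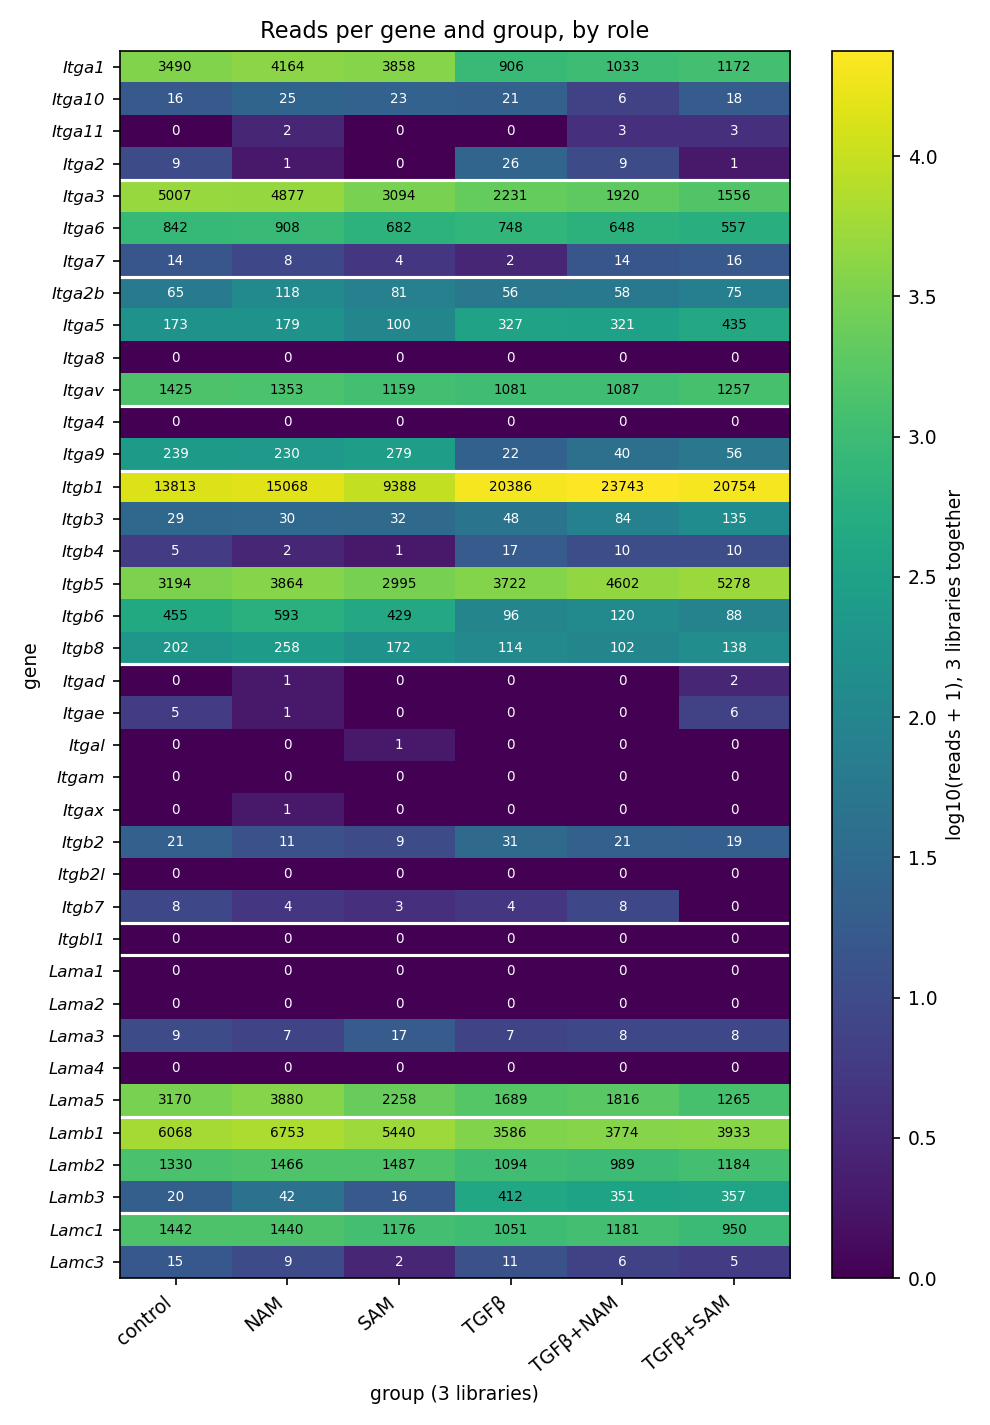
Reads of 38 of the 39 integrin and laminin genes (rows, ordered by role, white lines between roles) summed over the 3 libraries of each group (columns); the number is printed in each cell and the colour is log10 of reads plus 1. Itgb1 has 9388 to 23743 reads per group, whereas 8 genes have none in any group.

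Passing the filter was not neutral for some genes. Lamb3 and Itgb3 had all 3 libraries past the count limit in the 3 groups with TGFβ and in no other group, so they entered the test through the groups in which they were high. Itga10 and Itgb2 passed with 3 and 4 scattered libraries. The 20 tested genes are therefore not a fair sample of the 39, and counts over them are given as a description.

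With TGFβ the tested genes changed in both directions. Of the 20 tested genes, 4 rose and 6 fell with TGFβ against control (edgeR quasi-likelihood test, Benjamini-Hochberg adjusted p under 0.05 over all 13469 genes), which is 50% of them. Over all tested genes 19.4% were called, 9.7% higher and 9.73% lower. Lamb3, Itga5, Itgb1 and Itgb5 rose. Itga9, Itgb6, Itga1, Itga3, Lama5 and Lamb1 fell. The median log2 change over the 20 genes was 0.02, against 0.01 over all genes, while the median size of change without its sign was 0.70 against 0.28. Values in CPM are counts scaled to the library with trimmed-mean factors, and fold changes are fitted log2 values ± SE.

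Promoter windows are shown for 4 of the changed genes, 2 that rose and 2 that fell, because genes of both families moved in either direction with TGFβ. Each window holds the 250 bases before a RefSeq start (GRCm38.p6), read 5′ to 3′ on the strand of the gene. Capitals mark CAGAC or its reverse complement GTCTG, the short element known to bind SMAD proteins, the transcription factors of the TGFβ pathway. The Lamb3 window is at chr1:193301744-193301993 on the plus strand, 94295 bases inside the GENCODE M21 gene model, at the first RefSeq start. The Itgb1 window is at chr8:128685404-128685653 on the plus strand. The Itga1 window is at chr13:115101965-115102214 and the Lama5 window at chr2:180225860-180226109, both on the minus strand, and each of these 3 ends at the base before the gene model starts.
Lamb3: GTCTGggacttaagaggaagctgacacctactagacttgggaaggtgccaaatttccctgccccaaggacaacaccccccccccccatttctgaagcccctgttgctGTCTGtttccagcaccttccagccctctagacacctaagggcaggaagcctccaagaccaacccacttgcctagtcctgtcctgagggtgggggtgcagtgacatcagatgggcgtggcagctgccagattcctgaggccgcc
Itgb1: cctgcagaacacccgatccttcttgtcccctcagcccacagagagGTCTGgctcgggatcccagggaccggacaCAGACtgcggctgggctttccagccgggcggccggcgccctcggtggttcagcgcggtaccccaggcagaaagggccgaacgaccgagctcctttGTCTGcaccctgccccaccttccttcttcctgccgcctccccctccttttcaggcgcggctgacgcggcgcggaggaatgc
Itga1: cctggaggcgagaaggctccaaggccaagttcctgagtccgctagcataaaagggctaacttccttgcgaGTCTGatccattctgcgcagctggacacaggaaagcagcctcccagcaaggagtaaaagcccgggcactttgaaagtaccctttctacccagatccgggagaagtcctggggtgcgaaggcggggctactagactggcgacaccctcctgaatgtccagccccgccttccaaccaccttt
Lama5: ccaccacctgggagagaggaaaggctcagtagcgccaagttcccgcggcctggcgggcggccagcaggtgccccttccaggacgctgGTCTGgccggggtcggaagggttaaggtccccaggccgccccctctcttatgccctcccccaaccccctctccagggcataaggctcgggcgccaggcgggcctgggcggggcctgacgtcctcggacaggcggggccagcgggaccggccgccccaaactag

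The element was found in windows of genes of either direction. Lamb3 carried 2 copies in its first window, Itgb1 3, and Itga1 and Lama5 1 each. The windows of Itga5 and Itgb5, which rose, and of Itga9, which fell, held none and are not printed. A RefSeq promoter entry was found for 25 of the 39 genes, some with several starts, and for 11 of the 12 that passed the test in any TGFβ comparison. Entries on chromosome 18, where Lama3 lies, were left out for these genes, a step not applied to the windows of all genes. Of the 14 windows of those 11 genes, 9 held CAGAC on either strand, as did 7 of 14 windows of the other genes and 42.2% of all 32851 windows of the same length. The motif TGANTCA, bound by AP-1 factors, on either strand, was in 0 of 14, in 1 of 14 and in 6.75% of all windows, so in the printed windows no matches of the motifs overlap. A match is a string of letters, not a site shown to be bound.

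Among the collagen-binding α subunits Itga1 fell with TGFβ. Itga1 stands at chr13:114953096-115101964 (GRCm38, minus strand). It was at 180.3, 181.9 and 157.7 CPM in the control libraries and 62.1, 49.7 and 53.99 CPM in the TGFβ libraries. Every TGFβ library was below every control library. Itga1 shares exons with the predicted gene Gm49395 on the same strand, though none in its last 500 bases. The log2 change was -1.65 ± 0.12, a 3.14-fold lower level (adjusted p = 1e-14). Itga10, the cartilage collagen receptor subunit, was at 0.506 to 1.0 CPM in control and 0.841 to 2.45 CPM in TGFβ libraries and was not called (0.77 ± 0.96). Its exons overlap those of the predicted gene Gm42957 on the same strand, so its reads are uncertain as well as few.

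Among the laminin-binding α subunits Itga3 fell and Itga6 was not called. Itga3, which joins Itgb1 in a laminin receptor of tubular cells, was at 247, 252 and 251 CPM in control and 126, 143 and 141 CPM with TGFβ, with no overlap. Its log2 change was -0.87 ± 0.11 (adjusted p = 3.18e-08). Itga6, which can pair with Itgb1 or Itgb4, was at 49.7, 33.3 and 43.2 CPM in control and 47.8, 42.2 and 47.9 CPM with TGFβ. These libraries overlapped, and the log2 change of 0.13 ± 0.15 was not called, with a 95% interval from -0.20 to 0.46.

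Among the α subunits that bind the RGD motif of fibronectin and vitronectin, Itga5 rose and Itgav was not called. Itga5, the α subunit of the fibronectin receptor, was at 6.62, 12.6 and 6.41 CPM in control and 17.3, 19.4 and 24.5 CPM with TGFβ. The groups did not overlap, although control replicate 2 stood closer to the TGFβ libraries than the other control libraries did. The log2 change was 1.24 ± 0.29 (adjusted p = 0.00115). Itgav, which pairs with several β subunits, was at 65.2 to 74.5 CPM in control and 61.1 to 71.9 CPM in TGFβ libraries (-0.12 ± 0.12), and Itga2b, the platelet subunit, was at 2.86 to 3.88 and 1.96 to 4.08 CPM (0.02 ± 0.55). Platelet markers summed to at most 0.563 CPM in any control library.

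Itga9, whose product pairs with Itgb1 and binds tenascin and fibronectin, showed the largest fall among the tested genes. It was at 17.2, 7.42 and 10.96 CPM in control and 1.18, 1.73 and 0.982 CPM with TGFβ. The control libraries spread widely, yet the lowest of them was above every TGFβ library. The log2 change was -3.14 ± 0.44, 8.81-fold lower (adjusted p = 5.13e-07).

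Among the β subunits Itgb1 and Itgb5 rose and Itgb6 fell. Itgb1, the common partner of most α subunits named so far, was at 723.7, 670.6 and 670.3 CPM in control and 1243, 1243 and 1244 CPM with TGFβ. The TGFβ libraries lay close together and far above control, with a log2 change of 0.85 ± 0.07, or 1.81-fold (adjusted p = 3e-12). Itgb5, a vitronectin receptor subunit that pairs with Itgav, was at 158, 161 and 159 CPM in control and 239, 216 and 226 CPM with TGFβ. It rose by 0.51 ± 0.10 on the log2 scale without overlap (adjusted p = 1.75e-04).

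Itgb6, the epithelial β subunit that with Itgav activates latent TGFβ, fell. It was at 22.8, 25.8 and 18.9 CPM in control and 5.38, 6.43 and 5.64 CPM with TGFβ. No TGFβ library came near the control range, and the log2 change was -1.95 ± 0.23, 3.85-fold lower (adjusted p = 1.5e-08). Itgb8, another β subunit with this activity, was at 11.4, 8.85 and 9.95 CPM in control and 7.07, 7.53 and 5.89 CPM with TGFβ. Its libraries did not overlap either, but its log2 change of -0.55 ± 0.29 was not called (adjusted p = 0.209).

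Itgb3, which pairs with Itgav or Itga2b, had few reads. It was at 2.39, 0.714 and 1.18 CPM in control and 1.68, 3.45 and 3.93 CPM with TGFβ. The libraries overlapped and the log2 change of 1.05 ± 0.61 was not called (adjusted p = 0.258). Itgb2, the leukocyte β subunit, was at 0.704 to 1.57 CPM in control and 0.505 to 2.70 CPM with TGFβ (0.88 ± 0.87, not called). Its leukocyte α partners Itgal, Itgam, Itgax and Itgad had 1, 0, 1 and 3 reads in all. The summed level of the 11 leukocyte markers was 86.4 to 91.7 CPM in control and 52 to 67 CPM in TGFβ libraries, nearly all of it Csf1r, and the part of other cells in the Itgb2 reads was not tested.

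Of 6 tested laminin chains 3 were called, where 19.4% of all genes were. Lamb3, 1 of the 3, entered the test through the groups with TGFβ, so the count is a description only. Lama5, the main α chain of the adult tubular basement membrane, was at 147.5, 164 and 164 CPM in control and 112, 102 and 92.0 CPM with TGFβ. It fell without overlap by 0.63 on the log2 scale (SE 0.10, adjusted p = 6.77e-06). Lamb1, the β chain of many basement membrane laminins, was at 316, 287 and 305 CPM in control and 222, 222 and 209.6 CPM with TGFβ. Its log2 change was -0.48 ± 0.09 (adjusted p = 5.47e-05), again without overlap.

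Lamb3 made the largest change of the 20 genes and went the other way. It encodes a β chain that joins the product of Lama3 in the laminin of epithelial anchoring. Lamb3 was at 0.281, 0.999 and 1.85 CPM in control and 29.4, 22.3 and 23.3 CPM with TGFβ. All 3 TGFβ libraries were far above control, and the log2 change was 4.61 ± 0.41, 24.4-fold (adjusted p = 7.56e-12). The change was 5.25 without control replicate 3 and 4.14 to 4.69 without any other single library. The fold rests on 20 reads in the 3 control libraries against 412 in the TGFβ libraries. Its GENCODE M21 model (chr1:193207699-193343878, plus strand) spans Hsd11b1 and G0s2 on the other strand, whose exons it does not overlap.

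Lama3, whose product is the α partner of the Lamb3 chain, was too low to test, with 9 reads in control and 7 in TGFβ libraries. Lamc1 and Lamb2 were tested and not called: Lamc1, the common γ chain, changed by -0.18 ± 0.12 (95% interval -0.44 to 0.08) and Lamb2, the β chain of the glomerular basement membrane, by 0.01 ± 0.12 (-0.24 to 0.27).

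**Figure D2:**
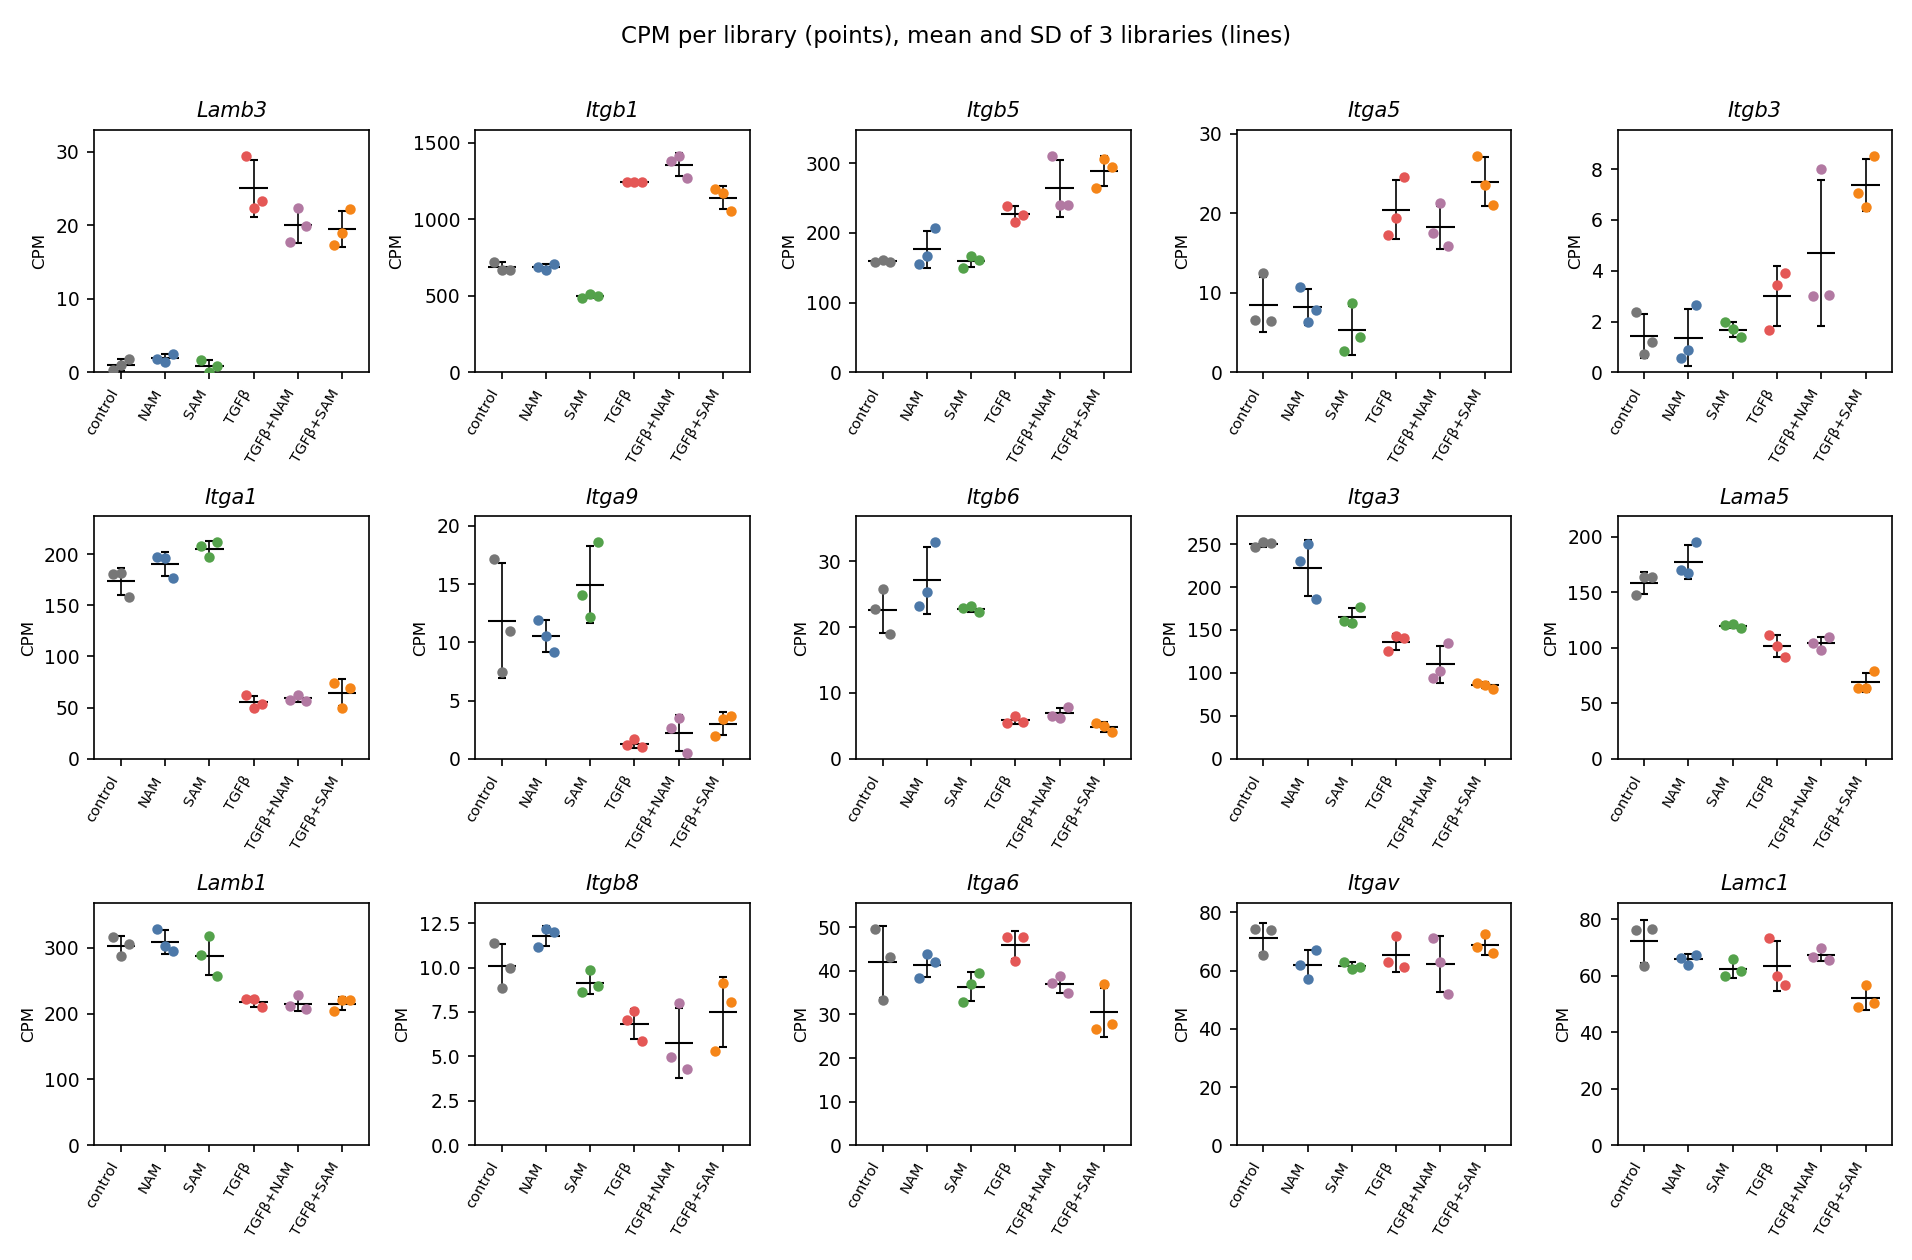
CPM (vertical axes, linear from 0) in each library (points) of the 6 groups (horizontal axes), with the mean and SD of 3 libraries as lines, for the 13 genes that passed the test in any comparison and for Itgav and Lamc1. Lamb3 lies at 17.3 to 29.4 CPM in the 9 libraries with TGFβ and at 0 to 2.51 CPM in the 9 without it, and Itga1 shows the opposite order.

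The same TGFβ comparison was made in separate libraries with each supplement, TGFβ+NAM against NAM and TGFβ+SAM against SAM. With NAM 5 of the 20 genes rose and 7 fell, where 21.9% of all genes were called (10.9% higher, 11% lower). With SAM 5 rose and 6 fell, where 28.4% were called (14.2% in each direction), and 4 rose and 6 fell without SAM replicates 2 and 3. The 4 genes that rose without a supplement, Lamb3, Itgb1, Itgb5 and Itga5, and the 6 that fell, Itga1, Itga3, Itga9, Itgb6, Lama5 and Lamb1, had the same call in all 3 comparisons. Over all tested genes 818 (6.07%) were called higher and 896 (6.65%) lower in all 3. The 3 comparisons share no library. Of the other 10 genes, 8 passed the test in none of them.

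Lamb3 was at 1.88, 1.41 and 2.51 CPM with NAM and 17.7, 22.4 and 19.9 CPM with TGFβ+NAM. With SAM it was at 1.67, 0 and 0.861 CPM, and with TGFβ+SAM at 17.3, 18.9 and 22.2 CPM. The TGFβ libraries were above all others in both settings, with log2 changes of 3.36 ± 0.37 (adjusted p = 1.5e-09) and 4.49 ± 0.43 (adjusted p = 2.64e-11). In the SAM setting the change was 5.50 without SAM replicate 1, 3.91 without SAM replicate 2 and 3.53 (adjusted p = 2.47e-06) without SAM replicates 2 and 3.

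Itgb1 was at 687, 672 and 709 CPM with NAM and 1383, 1414 and 1271 CPM with TGFβ+NAM. With SAM it was at 485, 515 and 498 CPM and with TGFβ+SAM at 1197, 1168 and 1056 CPM. It rose in both settings without overlap, by 0.98 ± 0.07 (adjusted p = 5.73e-14) and 1.19 ± 0.07 (adjusted p = 1.13e-16) on the log2 scale. Itgb5 went from 156, 167 and 207 CPM to 311, 241 and 241 CPM with NAM, and from 150.4, 166 and 161 CPM to 264, 307 and 294 CPM with SAM. Its changes were 0.58 ± 0.10 and 0.86 ± 0.10, again without overlap. Without SAM replicates 2 and 3 the SAM setting gave 1.24 for Itgb1 and 0.94 for Itgb5, both still called.

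Itga5 was at 10.7, 6.29 and 7.80 CPM with NAM, 17.5, 21.3 and 15.9 CPM with TGFβ+NAM, 2.73, 8.74 and 4.48 CPM with SAM and 27.2, 23.6 and 21.1 CPM with TGFβ+SAM. The groups did not overlap in either setting, and the log2 changes were 1.15 ± 0.29 (adjusted p = 0.00239) and 2.17 ± 0.30 (adjusted p = 2.22e-07). Without SAM replicates 2 and 3 the second was 3.13, the remaining SAM library being the lowest of the 3.

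Itgb3 passed the test with both supplements though not without. It was at 0.579, 0.898 and 2.65 CPM with NAM and 3.01, 8.001 and 3.04 CPM with TGFβ+NAM, and at 1.97, 1.72 and 1.38 CPM with SAM and 7.08, 6.52 and 8.52 CPM with TGFβ+SAM. The libraries did not overlap, but TGFβ+NAM replicate 2 stood well above the other 2 of its group. The log2 changes were 1.76 ± 0.59 (adjusted p = 0.0257) and 2.11 ± 0.58 (adjusted p = 0.00457). The NAM call was lost without TGFβ+NAM replicate 2 (1.13, adjusted p = 0.277), NAM replicate 1 (1.41, adjusted p = 0.133) or NAM replicate 2 (1.53, adjusted p = 0.108). The SAM call was lost without SAM replicates 2 and 3 (1.90, adjusted p = 0.132).

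The 6 genes that fell without a supplement also fell in each of these settings. Itga1 went from 197, 196 and 177 CPM with NAM to 57.2, 62.7 and 57.0 CPM with TGFβ+NAM, and from 207.5, 197 and 212 CPM with SAM to 74.1, 49.5 and 69.6 CPM with TGFβ+SAM. Its log2 changes of -1.69 ± 0.12 and -1.67 ± 0.11 stand beside -1.65 without a supplement. Itga3 went from 230.2, 250.3 and 186 CPM to 94.4, 101.8 and 134 CPM with NAM (-1.01 ± 0.11) and from 160.0, 158 and 177 CPM to 88.5, 86.2 and 81.7 CPM with SAM (-0.95 ± 0.11). In none of these did the groups overlap. With SAM replicates 2 and 3 left out the SAM setting gave -1.69 for Itga1 and -0.90 for Itga3, both still called.

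Itga9 was at 11.9, 10.5 and 9.19 CPM with NAM and 2.66, 3.52 and 0.537 CPM with TGFβ+NAM, and at 14.1, 12.2 and 18.6 CPM with SAM and 1.95, 3.42 and 3.72 CPM with TGFβ+SAM. Itgb6 went from 23.2, 25.3 and 32.9 CPM to 6.55, 6.24 and 7.88 CPM with NAM and from 22.9, 23.2 and 22.2 CPM to 5.49, 5.05 and 4.03 CPM with SAM. Neither gene had overlapping groups. The log2 changes of Itga9 were -2.21 ± 0.41 and -2.29 ± 0.39 and those of Itgb6 -1.98 ± 0.23 and -2.23 ± 0.24, in each case with NAM first. Without SAM replicates 2 and 3 the latter of each pair was -2.20 for Itga9 and -2.24 for Itgb6, both still called.

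Lama5 was at 169.9, 167 and 195 CPM with NAM, 105, 97.9 and 109.6 CPM with TGFβ+NAM, 120.6, 121 and 118 CPM with SAM and 64.2, 63.7 and 79.2 CPM with TGFβ+SAM. Lamb1 was at 329, 302 and 296 CPM with NAM, 212, 228 and 206 CPM with TGFβ+NAM, 289, 318 and 258 CPM with SAM and 203, 221 and 221 CPM with TGFβ+SAM. Both chains fell without overlap in both settings. The log2 changes were -0.77 ± 0.10 and -0.80 ± 0.11 for Lama5 and -0.52 ± 0.09 and -0.42 ± 0.09 for Lamb1. Without SAM replicates 2 and 3 the SAM setting gave -0.80 for Lama5 and -0.42 for Lamb1 (adjusted p = 0.0105), both still called.

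Itgb8 passed the test in the NAM setting alone, with 11.2, 12.2 and 12.0 CPM under NAM and 4.96, 8.001 and 4.30 CPM under TGFβ+NAM (-1.02 ± 0.29, adjusted p = 0.00829). The call was lost without TGFβ+NAM replicate 3 (adjusted p = 0.0612) or without both libraries that stood apart (adjusted p = 0.0746). With SAM it was at 8.64, 9.83 and 8.95 CPM and with TGFβ+SAM at 5.31, 9.12 and 8.06 CPM, which overlap (-0.28 ± 0.29). Lamb2 came close to the threshold in the SAM setting (-0.29 ± 0.12, adjusted p = 0.0591) and was called by DESeq2, without SAM replicate 2 (-0.37, adjusted p = 0.0279) or without TGFβ+SAM replicate 2 (-0.37, adjusted p = 0.029).

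**Figure D3:**
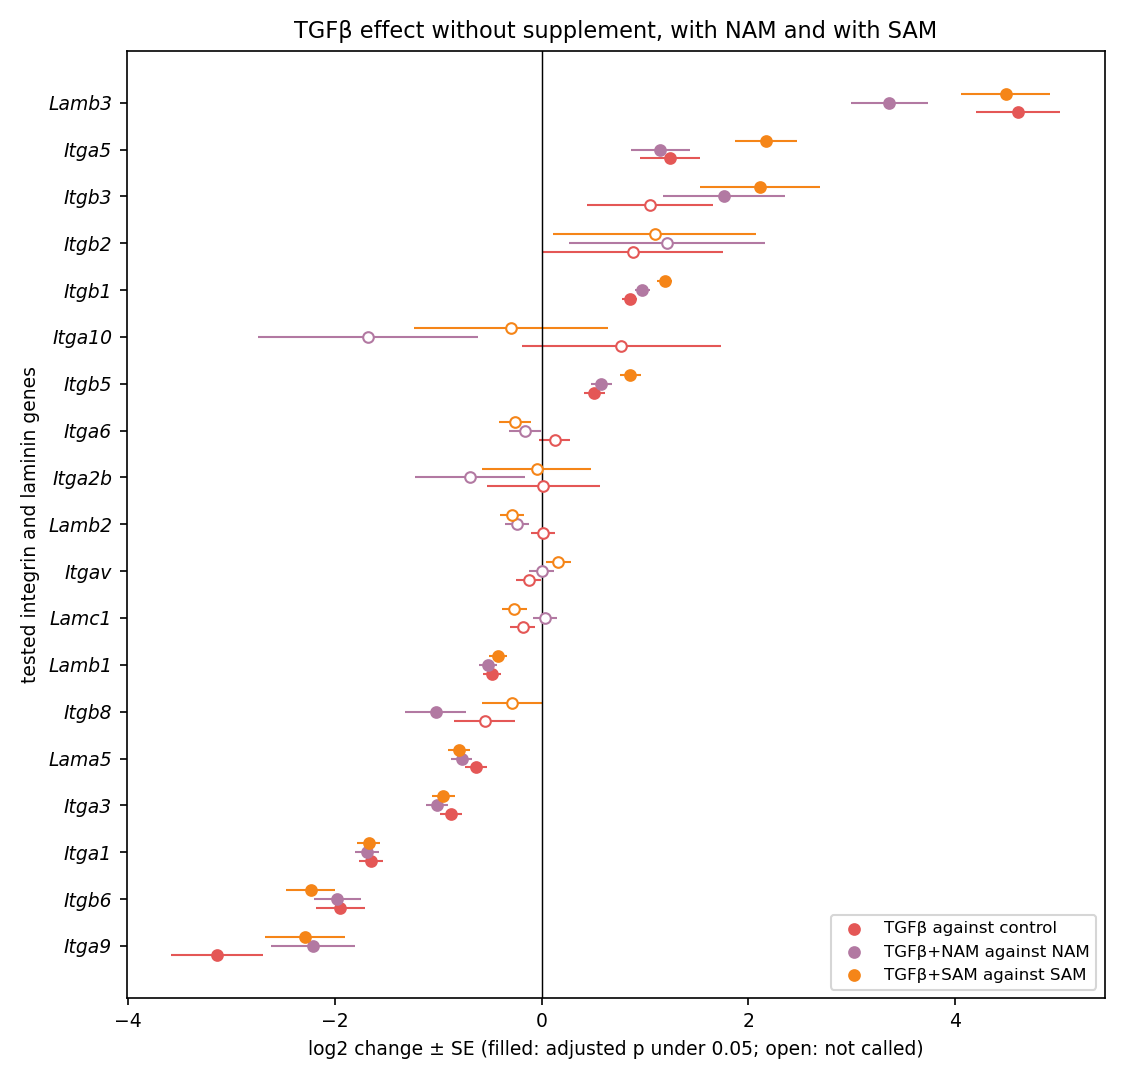
Fitted log2 change with TGFβ (horizontal axis, bars are SE) of 19 of the 20 tested genes (vertical axis) without a supplement, with NAM and with SAM; filled points have an adjusted p under 0.05. Lamb3 lies between 3.36 and 4.61 and Itga9 between -3.14 and -2.21, and 10 genes have filled points on the same side in all 3 comparisons.

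Whether a supplement altered the TGFβ effect was tested as an interaction, the TGFβ effect with the supplement minus that without it. For NAM 0 of the 20 genes were called by edgeR or by DESeq2, where 0% of all genes were called. Lamb3 alone had an unadjusted p under 0.05 (-1.24 ± 0.59, adjusted p = 1). For SAM edgeR called 0 of 20, where 1.43% of all genes were called (0.802% higher, 0.631% lower), and 3 had an unadjusted p under 0.05. These were Itgb1 (0.34 ± 0.10, adjusted p = 0.103), Itga5 (0.92 ± 0.42, adjusted p = 0.407) and Itgb5 (0.34 ± 0.14, adjusted p = 0.334), in which the TGFβ rise was larger with SAM. DESeq2 called 1, Itgb1, and edgeR also called it without TGFβ+SAM replicate 3 (0.40, adjusted p = 0.0304). The 95% interval of the Itgb1 difference was 0.11 to 0.56. With SAM replicates 2 and 3 left out edgeR again called 0.

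Nicotinamide changed none of the tested genes past the threshold. Against control 0 of 20 were called by edgeR and by DESeq2 and 0 had an unadjusted p under 0.05, where 0.00742% of all genes were called. Among TGFβ-treated cells, TGFβ+NAM against TGFβ, 0 of 20 were called by either tool, where 0.0817% of all genes were called (0.0297% higher, 0.052% lower), and 3 had an unadjusted p under 0.05. These were Itga3 (-0.31 ± 0.11), Itgb5 (0.22 ± 0.10) and Lamb2 (-0.24 ± 0.12), none with an adjusted p under 0.467. For Itgb1 the 95% interval of the NAM effect was -0.16 to 0.16 without TGFβ, and for Itga3 it was -0.40 to 0.06.

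S-adenosyl methionine was followed by lower Itga3, Itgb1 and Lama5. Against control 3 of the 20 genes fell and 0 rose by edgeR and by DESeq2, where 11.8% of all genes were called, 5.02% higher and 6.79% lower. In all, 6 genes had an unadjusted p under 0.05. The median log2 change of the 20 genes was -0.17 against 0.00119 over all genes. The share of genes called, 15%, was close to that of all genes.

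Itga3 was at 247, 252 and 251 CPM in control and 160.0, 158 and 177 CPM with SAM, without overlap. Its log2 change was -0.60 ± 0.11 (adjusted p = 8.77e-05), and -0.64 (adjusted p = 0.018) without SAM replicates 2 and 3. Itgb1, at 670.3 to 723.7 CPM in control, was at 485, 515 and 498 CPM with SAM. All SAM libraries were below control, with a log2 change of -0.46 ± 0.07 (adjusted p = 1.4e-05), and -0.51 (adjusted p = 0.00593) without those 2 libraries.

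Lama5 was at 120.6, 121 and 118 CPM with SAM, below its lowest control library of 147.5 CPM. Its log2 change was -0.40 ± 0.10 (adjusted p = 0.00568), and the call was lost without SAM replicates 2 and 3 (-0.40, adjusted p = 0.153). Itga5 was at 2.73, 8.74 and 4.48 CPM with SAM and overlapped control (-0.69 ± 0.32, adjusted p = 0.165). It was called when SAM replicate 2 was left out (-1.26, adjusted p = 0.0153) or with replicates 2 and 3 out (-1.64, adjusted p = 0.0385). Itga1 (0.24 ± 0.11, adjusted p = 0.146) and Lamb2 (0.25 ± 0.12, adjusted p = 0.156) were the other 2 with an unadjusted p under 0.05.

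Among TGFβ-treated cells SAM was again followed by lower Itga3 and Lama5. In TGFβ+SAM against TGFβ 3 of 20 genes fell and 1 rose, where 7.32% of all genes were called, 3.07% higher and 4.25% lower. Itga3 was at 126, 143 and 141 CPM with TGFβ and 88.5, 86.2 and 81.7 CPM with TGFβ+SAM (-0.68 ± 0.11, adjusted p = 4.15e-05). Lama5 was at 112, 102 and 92.0 CPM and 64.2, 63.7 and 79.2 CPM (-0.56 ± 0.11, adjusted p = 2.93e-04). Neither gene had overlapping groups. This comparison shares no library with SAM against control, but in both SAM goes with the library block, so a block difference could appear in both.

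Itga6 was at 47.8, 42.2 and 47.9 CPM with TGFβ and 26.7, 37.0 and 27.7 CPM with TGFβ+SAM. All TGFβ+SAM libraries were lower, with a log2 change of -0.59 ± 0.16 (adjusted p = 0.0127), but the call was lost when TGFβ replicate 1 (adjusted p = 0.0573), TGFβ replicate 3 (0.052), TGFβ+SAM replicate 1 (0.0853) or TGFβ+SAM replicate 3 (0.0617) was left out. Itgb5 was at 239, 216 and 226 CPM and 264, 307 and 294 CPM and rose by 0.34 ± 0.10 (adjusted p = 0.0267). Its call was lost without TGFβ replicate 2 (adjusted p = 0.11), TGFβ replicate 3 (0.0764) or TGFβ+SAM replicate 2 (0.131). Itgb1 was not called here (-0.13 ± 0.07, adjusted p = 0.35), with values of 1197, 1168 and 1056 CPM against 1243 to 1244 CPM.

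**Figure D4:**
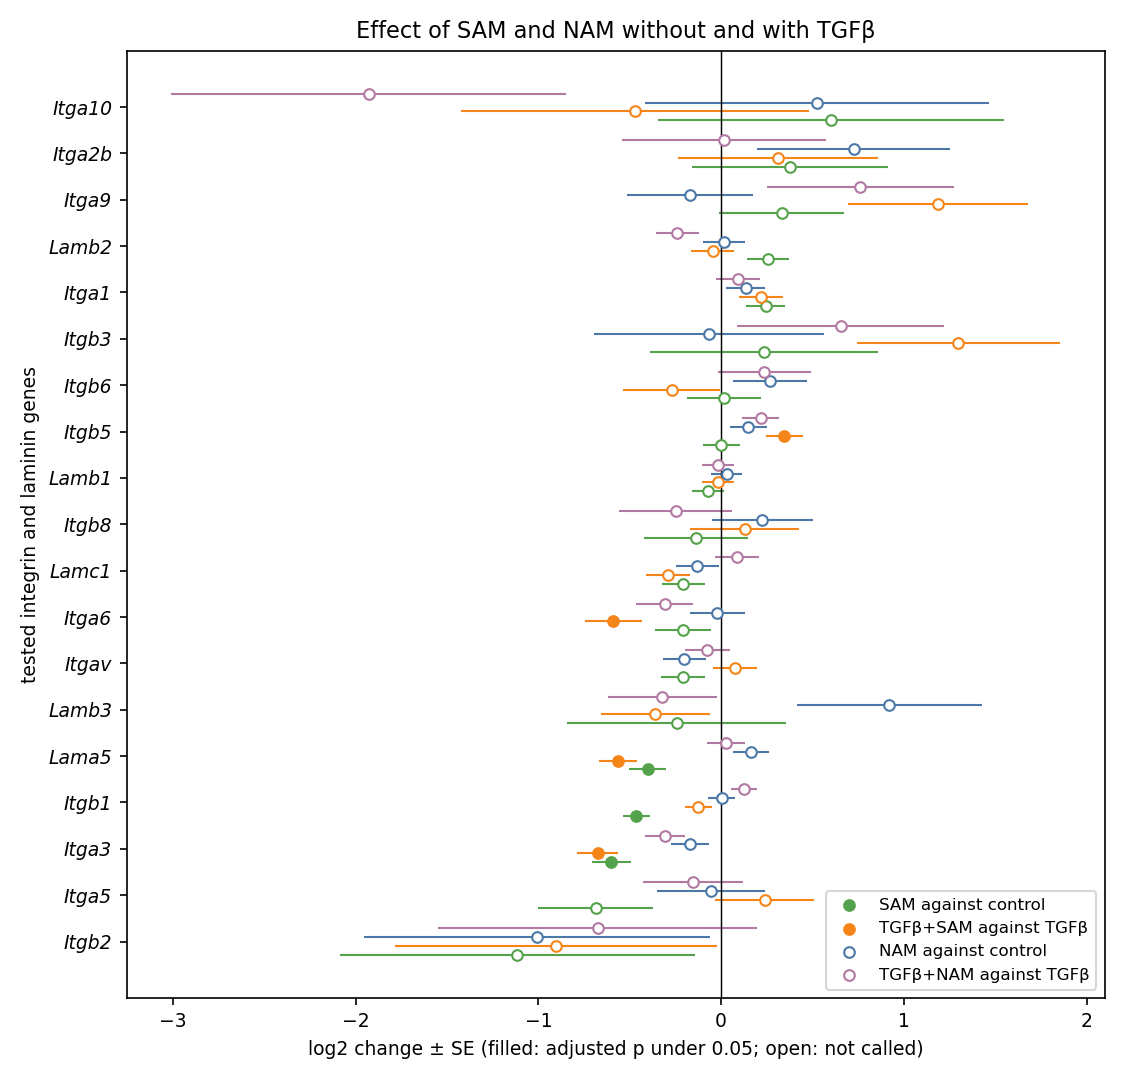
Fitted log2 change with SAM or NAM (horizontal axis, bars are SE) of 19 of the 20 tested genes (vertical axis), in cells without and with TGFβ; filled points have an adjusted p under 0.05. Itga3 and Lama5 are filled and below 0 for SAM both without and with TGFβ, and neither NAM comparison has a filled point.

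The levels of Itga3 and Lama5 over the 6 groups were lowest with TGFβ and SAM together. Itga3 was highest in control (249.9 ± 2.76 CPM, SD, n = 3), then NAM (222 ± 32.8), SAM (165 ± 10.5), TGFβ (136 ± 9.36), TGFβ+NAM (110.2 ± 21.4) and TGFβ+SAM (85.4 ± 3.46). Lama5 was highest in NAM (177.5 ± 15.4 CPM), then control (159 ± 9.59), SAM (120.0 ± 1.82), TGFβ+NAM (104 ± 5.88), TGFβ (102 ± 9.85) and TGFβ+SAM (69.0 ± 8.79). Neither control and NAM nor TGFβ and TGFβ+NAM, which are neighbours or near neighbours in these orders, were called different for these genes. TGFβ+SAM was the lowest group for both, with all its libraries below those of every other group.

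Partners of the integrins moved with TGFβ too. Of 32 listed focal adhesion genes, which join integrin tails to actin or signal from them, 30 were tested, and 19 rose and 0 fell with TGFβ against control (median log2 change 0.37, against 0.01 over all genes), where 9.7% of all genes rose and 9.73% fell. Without both libraries that stood apart 19 rose and 1 fell. Actn1, an actin crosslinker, rose by 1.36 ± 0.09 and Csrp1, a LIM protein of actin fibres, by 1.44 ± 0.10. Pdlim7 and Pdlim5, both PDZ-LIM scaffolds, rose by 1.01 ± 0.09 and 0.74 ± 0.09. The same list counted 17 higher and 0 lower with NAM, where 10.9% of all genes rose and 11% fell. With SAM it counted 20 higher and 2 lower, where 14.2% of all genes went each way, and 17 higher and 2 lower without SAM replicates 2 and 3.

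Of 15 tested genes that inactivate, recycle or accompany integrins, 4 fell and 0 rose with TGFβ. Over all genes 19.4% were called and 9.73% fell, so the count is given as a description only. These were the tetraspanins Cd9 (-1.60 ± 0.18), Cd82 (-1.24 ± 0.18) and Cd81 (-0.29 ± 0.07) and the talin-binding adaptor Kank1 (-1.25 ± 0.18). Of 6 other laminin receptors, 3 fell and 0 rose: Dag1, the dystroglycan gene (-0.80 ± 0.10), the syndecan gene Sdc4 (-0.73 ± 0.11) and Bcam, a receptor of Lama5 laminins (-1.11 ± 0.20). The median of these lists was -0.13 and -0.44.

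Basement membrane partners of laminin changed in both directions. Of 16 tested of 23 listed, 6 rose and 5 fell, where 9.7% of all genes rose and 9.73% fell. The count is a description only, since a listed gene, like Lamb3, entered the test through the groups with TGFβ. Col4a4, a collagen IV chain, rose by 2.94 ± 0.27, from 5.71 to 44.4 CPM on average. Col4a5, the chain it assembles with, fell by 1.03 on the log2 scale (SE 0.12), and Tinagl1 and Npnt, both basement membrane glycoproteins, changed by -0.96 ± 0.10 and -0.997 ± 0.15. Of the 3 tested hemidesmosome partners of Itga6 and Itgb4, Plec rose by 0.33 ± 0.10 (adjusted p = 0.0108), a call lost without control replicate 2 or TGFβ replicate 3.

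Of the interstitial and soluble ligands 11 of 19 listed were tested, and 7 rose and 2 fell (median 0.70), where 9.7% of all genes rose and 9.73% fell. Fn1, the ligand of the Itga5 receptor, rose by 1.24 ± 0.07, from 484 to 1144 CPM. Col1a1 rose by 4.44 ± 0.20, Ccn2, a matricellular integrin ligand, by 2.52 ± 0.09 and Postn, periostin, by 2.11 ± 0.10. Col1a1 is also on the fibroblast marker list, whose summed level rose beside these genes, and the part of other cells was not tested. Of 5 tested genes of the latent TGFβ complex, on which Itgb6 and Itgb8 act, 3 rose and 1 fell: Ltbp1 (2.17 ± 0.16), Lrrc32 (4.87 ± 0.51) and Tgfb2 (0.25 ± 0.09) were higher and Ltbp3 (-0.79 ± 0.10) lower. The Tgfb2 call was lost without control replicate 1, 2 or 3 or TGFβ replicate 1 or 3.

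In SAM against control, which shares its control libraries with the comparison above, 5.02% of all genes rose and 6.79% fell, and 150 rose and 317 fell without SAM replicates 2 and 3. In the focal adhesion list 1 rose and 9 fell of 30 (median -0.11), among them Vcl, vinculin (-0.63 ± 0.09), Pdlim7 (-0.66 ± 0.10) and Parva (-0.61 ± 0.10). Without SAM replicates 2 and 3 the count was 0 higher and 2 lower, and Parva was no longer called (-0.45, adjusted p = 0.0818). Among interstitial ligands 6 fell and 0 rose (median -0.60), and 6 fell without those libraries as well. Those named here kept their calls without them: Postn (-1.54 ± 0.11), Ccn2 (-1.16 ± 0.09), Fn1 (-0.60 ± 0.07) and Ccn1 (-0.59 ± 0.07).

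Of 16 tested basement membrane genes 1 rose and 6 fell with SAM (median -0.43), where 5.02% of all genes rose and 6.79% fell. Without SAM replicates 2 and 3 the count was 0 higher and 3 lower, where 150 of all 13469 genes rose and 317 fell. Sparc, a collagen-binding matrix protein, changed by -0.74 ± 0.07, Tinagl1 by -0.91 ± 0.09, Agrn, agrin, by -0.58 ± 0.08 and Col4a4 by -2.74 ± 0.44. Col4a4 was at -3.51 without SAM replicate 1 and lost its call without SAM replicates 2 and 3 (-1.92, adjusted p = 0.0552). Of the laminin receptors Dag1 rose (0.49 ± 0.09) and Sdc2 fell (-0.44 ± 0.09), with both calls kept without those 2 libraries. In the list of genes that inactivate, recycle or accompany integrins, Slc3a2, the heavy chain that binds Itgb1, rose (0.51 ± 0.08). Dab2 (-0.73 ± 0.12) and Kank2 (-0.32 ± 0.11) fell, with 1 higher and 0 lower without those 2 libraries. In the latent TGFβ list Ltbp3 (-0.66 ± 0.10) and Ltbp1 (-0.77 ± 0.19) fell, Ltbp3 alone without those libraries, and of the hemidesmosome genes Dst rose (0.35 ± 0.12) and Plec fell (-0.40 ± 0.10), Plec alone without those libraries.

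Many of these counts hung on single libraries. With 1 library left out, the focal adhesion list had 7 to 8 lower with SAM rather than 9, and the basement membrane list 4 to 6 rather than 6. With TGFβ the focal adhesion list had 15 to 17 higher rather than 19, and the basement membrane list 4 to 5 higher rather than 6. In SAM against control the hemidesmosome list had 0 higher without control replicate 1, 2 or 3 or SAM replicate 1 or 3. With SAM the list of genes that inactivate, recycle or accompany integrins had 1 lower rather than 2 without control replicate 1 or 3 or SAM replicate 1 or 2. The 1 higher call of the focal adhesion list with SAM was lost without control replicate 1 or 2 or any SAM replicate. That of the basement membrane list with SAM was lost without control replicate 1 or 3 or SAM replicate 1 or 3.

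**Figure D5:**
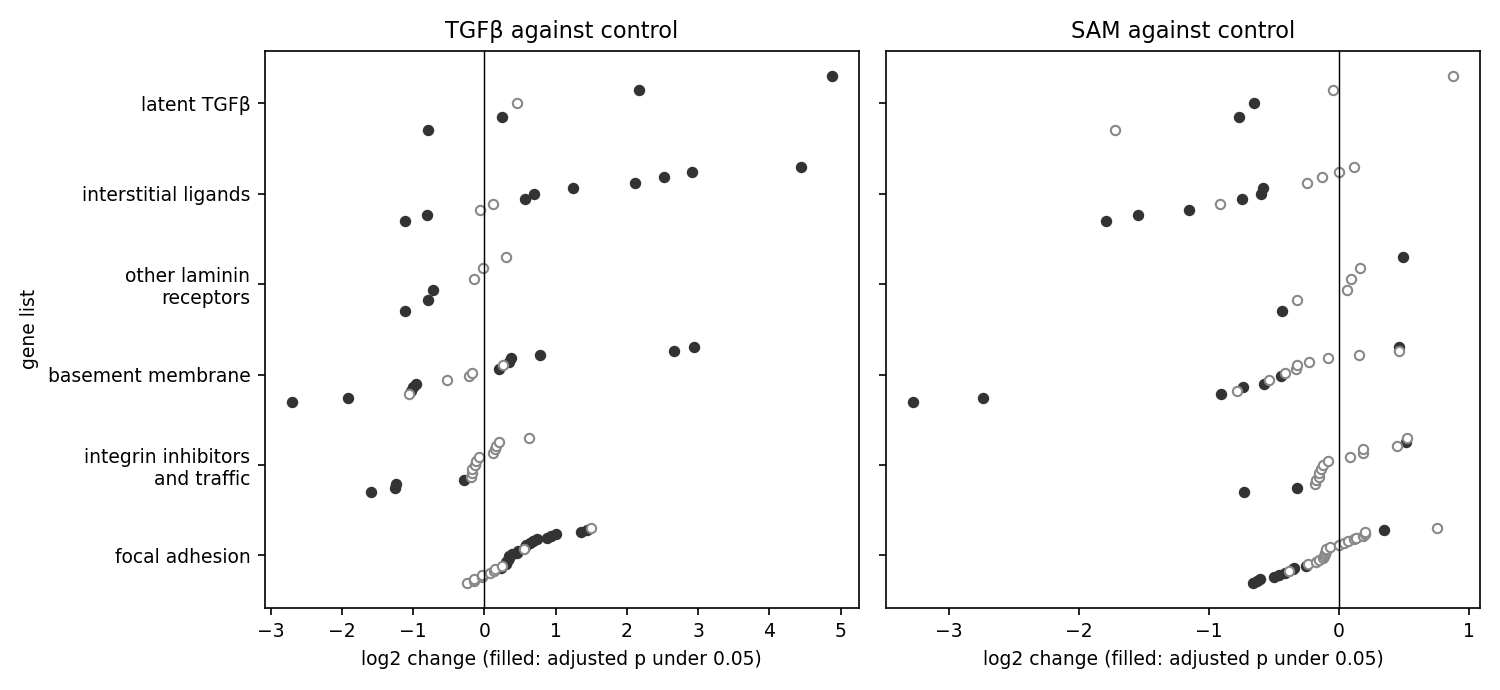
Fitted log2 change (horizontal axis) of each tested gene of 6 partner lists (rows; points are spread vertically by rank for visibility) with TGFβ against control and with SAM against control; filled points have an adjusted p under 0.05. In the focal adhesion list 19 points are filled to the right of 0 with TGFβ, and 9 are filled to the left with SAM.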

How the data were processed

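The values are raw counts as deposited, 1 row per gene and 1 column per library, made by the authors with STAR and HTSeq, per the submitters' processing notes, which give no version or strand setting. The notes name build GRCh38 while the gene identifiers are mouse Ensembl, so the build is unsettled. Symbols came from GENCODE M21 (GRCm38), where 55141 of 55487 identifiers matched, and positions and RefSeq promoters from GRCm38 (GRCm38.p6). Reads outside genes (22.8% to 28.2% of a library) and ambiguous reads (0.607% to 0.779%) were left out.

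Groups came from the sample titles. Tests used edgeR 4.0.16 in R 4.3.3: trimmed-mean (TMM) scaling, filterByExpr with a minimum count of 10, and 1 quasi-likelihood fit over all 18 libraries with a term per group. F tests were two-sided, with Benjamini-Hochberg adjustment over 13469 genes within each comparison and a threshold of 0.05. The biological coefficient of variation was 0.139. Intervals are at 95% with 12 residual degrees of freedom. The floor for a gene without reads is 3 counts and covers counting error only, since no molecular identifiers mark copies of a molecule. The script was tested on simulated data. Within-group library pairs differed by more than sampling noise (chi-square per degree of freedom 3.43 to 15.8 in 18 pairs), so none was counted as a duplicate.

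Every integrin or laminin gene called in any comparison is given by library, others by range or reads, and up to 4 genes with the smallest p from each partner list. Some genes are not reported here by name, though counts include them. The genes and lists were chosen with earlier results of these data known. The alternatives tried were DESeq2 1.42.0, library totals, size factors of the DESeq2 type in edgeR, no low-count filter beyond 1 read, a minimum count of 30, only the compared libraries, a replicate block, each replicate left out, the SAM libraries with conflicting tags left out, and both libraries that stood apart left out. Left-out fits kept the same gene filter. An arm left with 1 library was assumed to vary like the other groups.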

Additional observations from a re-analysis of the deposited data

How the results depend on the processing

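The 40 called changes of integrin and laminin genes gave 574 values under the alternatives, of which 559 kept direction and call, 15 fell short of the threshold and 0 reversed. Against control, no TGFβ call was lost under any alternative run. The 15 lost calls belong to Lama5, Itgb3, Itgb8, Itga6 and Itgb5 and, apart from Itgb3 in TGFβ+NAM against NAM fitted on the compared libraries alone (adjusted p = 0.0559, edgeR), are given in the report. For SAM against control the number called higher was 1 rather than 0 in a fit of the compared libraries alone (Itga1, 0.24, adjusted p = 0.0132). For TGFβ+SAM against TGFβ it was 0 to 1 with single replicates left out. In the interaction of TGFβ and SAM it was 1 rather than 0 (Itgb1) with DESeq2 (adjusted p = 0.00731), with the compared libraries alone (adjusted p = 0.0451) and with both libraries that stood apart left out (adjusted p = 0.0254), and 0 to 1 with single replicates left out; the cause was not tested. Equal replicate numbers share only a number: deviations of same-numbered libraries correlated at -0.0997 to 0.0696 (median 0.00421, 45 pairs), and 6 of 18 libraries correlated best with their own number. With the replicate number as a block, 4 genes were higher and 6 lower with TGFβ against control, 3 lower with SAM, 5 and 7 for TGFβ+NAM against NAM, 5 and 6 for TGFβ+SAM against SAM, and 1 and 3 for TGFβ+SAM against TGFβ, the same counts as without it. With no low-count filter 31 genes were tested and the numbers called were those with it; for genes this low, depth limits what can be seen.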
